A study of Mus musculus with 11 samples.

Results

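Collagen genes were taken as every gene in the deposited counts whose mouse symbol has the form of Col, a type number, the letter a and a chain number, with at least 10 counts in 2 or more libraries. Of 25006 genes counted, 44 had such a symbol and 43 met the count rule, Col19a1 being the one left out. By the kind of assembly they form, 11 were fibrillar, 6 were basement membrane collagens and 26 belonged to other types. The data were mRNA libraries from the left ventricle of 11 mice, 1 library per mouse, read as counts per gene. Control mice were Vegfc fl/fl by the genotype field of their labels. Mice termed Vegfc-deficient here were Vegfc fl/fl;LysMCre, in which Cre driven by the lysozyme M promoter deletes floxed Vegfc in myeloid cells. The study states that neutrophils may be included, but that cardiac neutrophils did not express Vegfc. Mice were naive or had undergone MI by permanent ligation of the left anterior descending coronary artery, and 9 days later the infarcted part of the ventricle was taken, from naive mice a piece like it in place and mass. The groups held M44 and M45 (naive control, 2 libraries), M149, M150 and M34 (naive Vegfc-deficient, 3), M006, M38 and M40 (MI control, 3) and M35, M900 and M913 (MI Vegfc-deficient, 3). Values are listed below in this library order. Gene positions are those of GENCODE M21 on GRCm38. The labels' genotype field gives the controls as floxed without Cre, whereas the protocol text gives LysMCre mice, so the control genotype was not settled by the sources.

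Collagens are the main proteins of the extracellular matrix, in the resting heart and in the scar that replaces lost muscle. Their alpha chains wind around each other in helical trimers, and the chain combination sets the assembly that results. Fibrillar types, chiefly type I and type III with type V at the fibril core, form the cables that give a scar its strength. Type IV forms the sheet-like network under endothelium and around each cardiomyocyte, type VI forms beaded filaments beside it, and smaller families coat fibrils, anchor epithelium or span the cell membrane. In the heart these genes are expressed mainly by fibroblasts, and those of the basement membrane also by endothelial, mural and muscle cells.

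Several features of the libraries bear on every value below. Total counts ran from 10824989 to 26782728, and 3 counts, the limit that a count of 0 allows, corresponded to 0.101 to 0.363 CPM, which covers counting error only. CPM are counts scaled per library by its TMM-normalised size. Whole-tissue Vegfc was at 21.9 to 45.5 CPM over the 11 libraries, and the MI groups overlapped. Lyz2, which carries the LysMCre insertion, was at 12.4 to 1392 CPM in 5 of 6 Vegfc-deficient libraries and at 2121 to 5380 CPM in the controls, but M149, labelled as naive and Vegfc-deficient, stood at 4565 CPM, against its label. Xist was between 0.624 and 11.8 CPM in naive hearts, 5 libraries, and between 188 and 403 CPM in the 6 after MI, and 4 Y-linked genes summed to 152 to 195 CPM in naive hearts but to 0 to 1.85 CPM after MI, so MI and the sex of the mice cannot be told apart in any comparison of MI with naive hearts. Markers of the tissue moved with MI as well. The summed level of 6 cardiomyocyte genes was 56710 to 80060 CPM in naive libraries and 2148 to 21280 CPM after MI, and all 6 genes fell in both genotypes. The sum of 4 genes of activated fibroblasts was 489.5 to 893.9 CPM in naive libraries and 9556 to 17120 CPM after MI, with all 4 higher in both genotypes. In contrast, the sum of 6 general fibroblast genes was 6943 to 8340 CPM before and 6903 to 10130 CPM after MI. Its genes moved in different directions. Of the 6, 2 were called higher and 1 lower in control hearts, and 3 higher and 1 lower in Vegfc-deficient hearts. Mean Lum went from 484 CPM in naive control to 2007 CPM in MI control hearts, and mean Gsn from 3164 to 992 CPM. The part of these shifts in the collagen values was not tested, and in whole tissue fewer cells of a type cannot be told apart from less RNA per cell.

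Promoters of a few members stand for the range of behaviour described below, those of Col3a1, the most abundant collagen mRNA per length, of Col11a1, among the genes with the steepest rise, and of Col5a3, the fibrillar gene that did not rise in control hearts. The 150 bases before the annotated start of each are given 5′ to 3′ on the strand of the gene, from RefSeq on GRCm38.p6, with the motif CCAAT, or ATTGG where it lies on the other strand, in capitals. None of these stretches overlapped an annotated exon. Col3a1 lies at chr1:45311388-45311537 (plus strand), Col11a1 at chr3:114030390-114030539 (plus strand) and Col5a3 at chr9:20815068-20815217 (minus strand).
Col3a1: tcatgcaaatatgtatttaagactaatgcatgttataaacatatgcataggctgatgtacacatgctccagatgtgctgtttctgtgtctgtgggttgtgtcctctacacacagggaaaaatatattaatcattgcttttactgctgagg
Col11a1: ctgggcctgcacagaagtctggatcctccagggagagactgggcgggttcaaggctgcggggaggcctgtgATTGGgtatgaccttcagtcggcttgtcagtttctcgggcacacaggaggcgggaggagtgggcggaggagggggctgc
Col5a3: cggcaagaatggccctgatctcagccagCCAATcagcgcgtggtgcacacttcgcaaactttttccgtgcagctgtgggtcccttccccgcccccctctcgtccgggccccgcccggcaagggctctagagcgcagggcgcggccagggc

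CCAAT was thus present in the printed stretches of Col11a1 and Col5a3, 79 and 122 bases before the start, and not in that of Col3a1. A promoter window was matched for 34 of the 43 collagen genes, with 37 windows in all. In the 250 bases before the start, 13 of 37 windows (35.1%) held CCAAT on either strand, against 11120 of all 32851 windows (33.8%). Of the genes that rose after MI in both genotypes, 9 of 24 with a window held it, and of the other members 4 of 10. The motif was therefore about as common in collagen promoters as in promoters at large.

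The first question was how collagen expression differed between infarcted and naive hearts. In control hearts 30 of the 42 collagen genes that passed the filter on low counts were higher after MI and 0 were lower, at an adjusted p under 0.05 (edgeR quasi-likelihood test, Benjamini-Hochberg over the 14779 genes tested). Over all genes, 26.3% were higher and 24.1% lower in the same comparison, or 50.4% in either direction. In Vegfc-deficient hearts 33 of 42 were higher and 0 lower, against 30% higher, 27.7% lower and 57.6% in either direction over all genes. Of the genes tested, Col2a1, Col6a4, Col7a1, Col9a1, Col10a1, Col22a1 and Col24a1 met the count rule through MI libraries alone, with under 10 counts in each naive library. A fall could hardly have been called for these genes, which also enter the counts and medians of the classes below. All of them but Col6a4 were called higher in at least 1 genotype. Col9a2 and Col9a3, called higher in both genotypes, reached 10 counts in M34 alone among the naive libraries, so they also needed MI libraries to meet the rule. Without M149, whose Lyz2 level went against its label, 30 were called, all higher, beside 8376 of all genes. Without M35 the number was 32, of which 1, Col6a6, was lower, beside 8446 of all genes. Of the members, 30 rose in both genotypes, 3 (Col5a3, Col22a1 and Col28a1) in Vegfc-deficient hearts only, and 9 in neither, a split for which the difference itself was tested below. The median log2 fold change was 2.24 in control and 2.65 in Vegfc-deficient hearts, beside 0.128 and 0.0968 over all genes. With the genes that had 0 naive counts set at their lower bounds, these medians were 2.01 and 2.60. In 31 members all 6 MI libraries lay above all 5 naive libraries, which held for 24.5% of all genes. Col25a1, a membrane-spanning collagen, failed the filter at 0.183 to 0.726 CPM, and it too had under 10 counts in each naive library.

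The rise was uneven across the classes. The median log2 fold change of the fibrillar class was 4.10 in control hearts, where 10 of 11 rose, and 3.90 in Vegfc-deficient hearts, where 11 of 11 rose. Basement membrane genes had medians of 0.893 and 1.44, with the same 4 of 6 higher in each genotype. Among the other types 16 of 25 rose in control hearts and 18 of 25 in Vegfc-deficient hearts, with medians of 2.07 and 2.62. Fibril-associated genes (6 and 7 of 8 higher, medians 4.08 and 3.70) and network-forming genes (3 of 3 in each) lay nearer the fibrillar class. Of the fibril-associated genes, Col9a1, Col9a2, Col9a3 and Col22a1 needed MI libraries to meet the count rule. The medians of this class include the fitted values of Col9a1, which had 0 naive counts. Its lower bounds lay below both medians, which would be smaller with Col9a1 set at these bounds. Beaded filament genes (3 of 6 in each, medians 1.64 and 2.21) lay nearer the basement membrane class. Membrane-spanning genes had lower medians, -0.583 and 0.435, with 1 of 3 tested higher in each genotype, beside 26.3% and 30% of all genes.

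**Figure D1:**
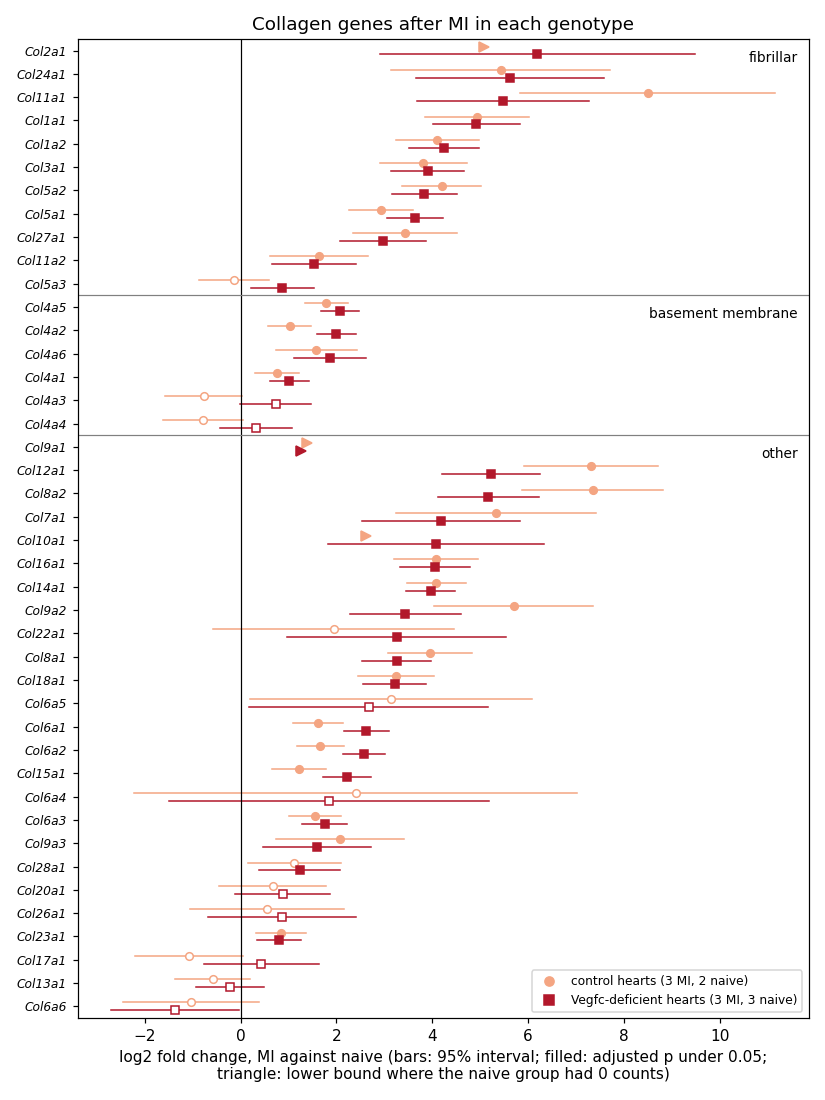
Log2 fold change of each collagen gene after MI (x axis) in control hearts (circles) and Vegfc-deficient hearts (squares), with 95% intervals; filled symbols passed an adjusted p of 0.05, and triangles mark lower bounds for genes with 0 naive counts. Most fibrillar, fibril-associated and network-forming genes lie beyond 2 on the log2 scale, while Col5a3, Col4a3, Col4a4, Col6a6, Col13a1 and Col17a1 lie around 0 or below in at least 1 genotype.

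The fibrillar genes of types I and III held the highest levels. Col1a1 (ENSMUSG00000001506, chromosome 11, 94936224 to 94953042) encodes the chain present in most copies in type I collagen. It was at 92.8 and 85.1 CPM in naive controls and 73.8, 148.5 and 157 CPM in naive Vegfc-deficient hearts. After MI it was at 2027, 2518 and 3601 CPM in MI controls and 2864, 5047 and 3587 CPM in MI Vegfc-deficient hearts, with every MI library above every naive one. The log2 fold changes were 4.93 in control hearts (SE 0.49, adjusted p = 0.000157) and 4.92 in Vegfc-deficient hearts (SE 0.41, adjusted p = 3.42e-05). Its partner chain Col1a2 (ENSMUSG00000029661, chromosome 6, 4504814 to 4541544) was at 328 and 302 CPM in naive controls and 295, 426 and 432 CPM in naive Vegfc-deficient hearts. In the infarcted hearts the level was 4915, 4559 and 6775 CPM in MI controls and 6175, 9321 and 6352 CPM in MI Vegfc-deficient hearts. The rise, of 4.10 in control and 4.24 in Vegfc-deficient hearts (SE 0.39 and 0.33, adjusted p = 0.00014 and 3e-05), stood beside that of Col1a1, and the ratio of the chains is tested below. Col3a1 (ENSMUSG00000026043, chromosome 1, 45311538 to 45349706), the single chain of type III, which makes thin and extensible fibrils, was at 892 and 875 CPM in naive controls and 744, 1218 and 1079 CPM in naive Vegfc-deficient hearts. After MI it was at 12498, 10127 and 14743 CPM in MI controls and 15224, 16815 and 13481 CPM in MI Vegfc-deficient hearts. Its log2 fold changes were 3.82 in control hearts (SE 0.41, adjusted p = 0.000197) and 3.90 in Vegfc-deficient hearts (SE 0.35, adjusted p = 3.97e-05), and the naive and MI libraries did not overlap.

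Type V chains enter the core of type I fibrils and limit their diameter. Col5a1 (ENSMUSG00000026837, chromosome 2, 27886425 to 28039514) was at 61.5 and 59.7 CPM in naive controls and 39.3, 57.5 and 59.2 CPM in naive Vegfc-deficient hearts. After MI the values were 394, 381 and 607 CPM in MI controls and 537, 783 and 625 CPM in MI Vegfc-deficient hearts. The log2 fold changes were 2.93 in control hearts (SE 0.30, adjusted p = 0.000176) and 3.64 in Vegfc-deficient hearts (SE 0.26, adjusted p = 2.47e-05). Col5a2 (ENSMUSG00000026042, chromosome 1, 45374321 to 45503282), which lies next to Col3a1 on the same chromosome, was at 93.5 and 92.6 CPM in naive controls and 88.5, 133 and 150.5 CPM in naive Vegfc-deficient hearts. It reached 1338, 1618 and 2153 CPM in MI controls and 1325, 2169 and 1802 CPM in MI Vegfc-deficient hearts, and the log2 fold changes were 4.19 in control hearts (SE 0.37, adjusted p = 0.000129) and 3.83 in Vegfc-deficient hearts (SE 0.31, adjusted p = 3.22e-05). The remaining chain of this type behaved differently. Col5a3 (ENSMUSG00000004098, chromosome 9, 20770050 to 20815067) was at 24.0 and 21.4 CPM in naive controls and 15.8, 12.1 and 21.9 CPM in naive Vegfc-deficient hearts. In MI hearts it was at 23.5, 14.9 and 23.4 CPM in MI controls and 43.8, 23.6 and 23.9 CPM in MI Vegfc-deficient hearts, so that control hearts overlapped and M35 alone stood above all 5 naive libraries. Its log2 fold change was -0.14 in control hearts (SE 0.33, adjusted p = 0.743) and 0.86 in Vegfc-deficient hearts (SE 0.30, adjusted p = 0.0289). The latter call was lost without M35, M149 or M150, with a log2 fold change of 0.51 without M35, and also with limma-voom (0.54), the length trend removed (0.44) or the GC trend removed (0.76).

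The fibrillar collagens best known from cartilage, types II and XI, and the lesser-known types XXIV and XXVII started from low levels. Col11a1 (ENSMUSG00000027966, chromosome 3, 114030540 to 114220718) was at 0.624 and 0.634 CPM in naive controls and 0.981, 3.99 and 11.6 CPM in naive Vegfc-deficient hearts. It was at 195, 282 and 214 CPM in MI controls and 78.5, 425 and 252 CPM in MI Vegfc-deficient hearts, the largest relative rise among fibrillar genes with counts in each naive library. The log2 fold changes were 8.50 in control hearts (SE 1.201, adjusted p = 0.000497) and 5.48 in Vegfc-deficient hearts (SE 0.81, adjusted p = 0.000333). Col2a1 (ENSMUSG00000022483, chromosome 15, 97975602 to 98004695), the chain of cartilage type II collagen, had 0 counts in both naive control libraries and in M150, and was at 0.0981 and 0.244 CPM in M149 and M34. After MI it was at 5.38, 7.03 and 15.2 CPM in MI controls and 0.353, 10.6 and 18.6 CPM in MI Vegfc-deficient hearts, with M35 far below the other 5. The mean in MI control hearts was at least 33.8-fold higher than 3 counts per naive control library (adjusted p = 0.00949). In Vegfc-deficient hearts the log2 fold change was 6.20 (SE 1.46, adjusted p = 0.00531). Col11a2 (ENSMUSG00000024330, chromosome 17, 34039437 to 34066685), another type XI chain, was at 0.892 and 0.815 CPM in naive controls and 0.882, 1.45 and 0.977 CPM in naive Vegfc-deficient hearts and after MI at 2.85, 2.30 and 2.86 CPM in MI controls and 1.65, 3.94 and 3.89 CPM in MI Vegfc-deficient hearts. Col11a2 rose by a log2 fold change of 1.64 in control hearts (SE 0.46, adjusted p = 0.0139) and 1.53 in Vegfc-deficient hearts (SE 0.39, adjusted p = 0.00723). The call in control hearts was lost without either naive control. The Col2a1, Col11a2 and Col24a1 values rest on few counts in naive libraries.

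Col24a1 (ENSMUSG00000028197, chromosome 3, 145292472 to 145552011) had 3 counts over both naive controls, at 0.0892 and 0.181 CPM, and was at 0.294, 0 and 0.0814 CPM in naive Vegfc-deficient hearts. In infarcted hearts it was at 3.61, 2.37 and 12.3 CPM in MI controls and 7.40, 7.51 and 5.18 CPM in MI Vegfc-deficient hearts. The ratio of MI control to naive control was 46.5, with a counting interval of 15.8 to 226. That interval pools the counts of all mice in a group and leaves out the spread between mice. In Vegfc-deficient hearts the log2 fold change was 5.61 (SE 0.88, adjusted p = 0.000442). Col27a1 (ENSMUSG00000045672, chromosome 4, 63214004 to 63334991) was at 5.08 and 3.44 CPM in naive controls and 3.33, 5.81 and 6.59 CPM in naive Vegfc-deficient hearts. Its MI values of 50.3, 23.9 and 64.7 CPM in MI controls and 29.3, 53.3 and 40.8 CPM in MI Vegfc-deficient hearts lay above all of these, with log2 fold changes of 3.44 in control hearts (SE 0.49, adjusted p = 0.000513) and 2.97 in Vegfc-deficient hearts (SE 0.41, adjusted p = 0.000218).

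**Figure D2:**
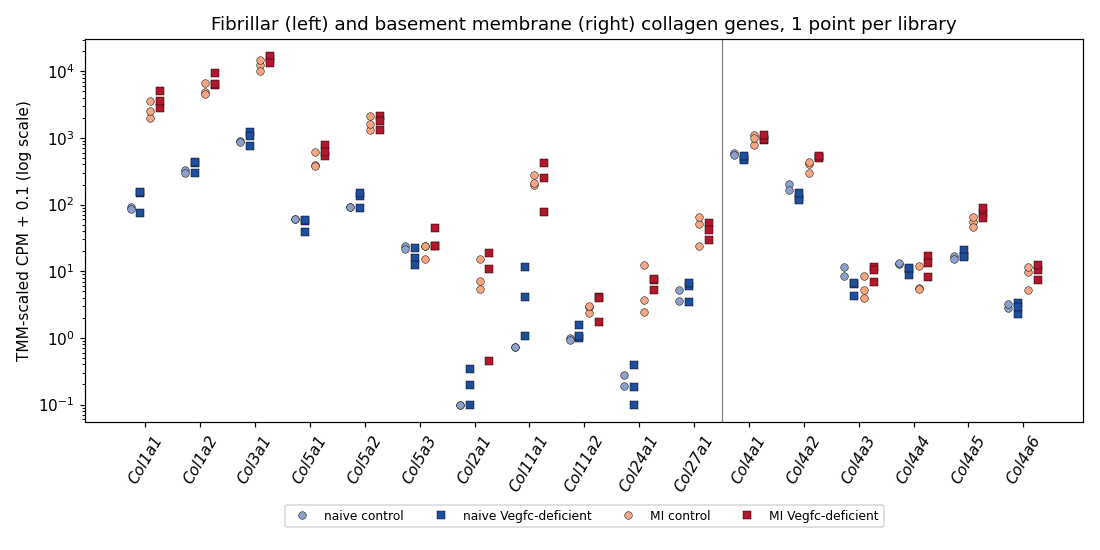
Level of each fibrillar gene (left of the line) and basement membrane gene (right) in every library, as TMM-scaled CPM plus 0.1 on a log scale, with circles for control and squares for Vegfc-deficient hearts, pale or dark blue for naive and orange or red for MI. Naive and MI points are separated by a wide gap in types I and III and in Col11a1, by a narrow one in Col11a2, Col4a1 and Col4a2, and overlap in Col5a3, Col4a3 and Col4a4; the MI Vegfc-deficient point far below the rest in Col2a1 is M35.

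Among the basement membrane genes, which are arranged in head-to-head pairs in the genome, 2 of the pairs rose and 1 did not. Col4a1 (ENSMUSG00000031502, chromosome 8, 11198423 to 11312826) and Col4a2 (ENSMUSG00000031503, chromosome 8, 11312805 to 11449287) encode the chains of the network found under all endothelium, and their first exons share 22 bases on opposite strands. Col4a1 was at 586 and 551 CPM in naive controls and 485, 469 and 545 CPM in naive Vegfc-deficient hearts. After MI it was at 1089, 792 and 1005 CPM in MI controls and 929.7, 975 and 1124 CPM in MI Vegfc-deficient hearts, above every naive library. Its log2 fold changes were 0.76 in control hearts (SE 0.21, adjusted p = 0.0118) and 1.02 in Vegfc-deficient hearts (SE 0.18, adjusted p = 0.00102). With the trend over gene length removed, Col4a1 was no longer called in control hearts (log2 fold change 0.46, adjusted p = 0.0758). Col4a2 was at 206 and 167 CPM in naive controls and 126, 116 and 148 CPM in naive Vegfc-deficient hearts. It was at 406, 302 and 432 CPM in MI controls and 525, 501 and 533 CPM in MI Vegfc-deficient hearts, and rose by a log2 fold change of 1.03 in control hearts (SE 0.20, adjusted p = 0.00241) and 1.998 in Vegfc-deficient hearts (SE 0.18, adjusted p = 4.17e-05). Whereas the naive Vegfc-deficient libraries lay below both naive controls for Col4a2, the MI Vegfc-deficient libraries lay above all 3 MI controls.

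Col4a5 (ENSMUSG00000031274, chromosome X, 141475385 to 141689234) and Col4a6 (ENSMUSG00000031273, chromosome X, 141165403 to 141474076) form a pair on the X chromosome and encode chains of other basement membranes, such as that of smooth muscle. Col4a5 was at 16.7 and 15.4 CPM in naive controls and 16.6, 21.1 and 16.2 CPM in naive Vegfc-deficient hearts. It was at 55.1, 46.7 and 64.2 CPM in MI controls and 74.5, 88.5 and 63.0 CPM in MI Vegfc-deficient hearts, the steepest rise of the class, with log2 fold changes of 1.79 in control hearts (SE 0.20, adjusted p = 0.000222) and 2.07 in Vegfc-deficient hearts (SE 0.18, adjusted p = 3.59e-05). Col4a6 was at 2.68 and 3.17 CPM in naive controls and 2.16, 3.27 and 2.77 CPM in naive Vegfc-deficient hearts and after MI at 9.64, 5.17 and 11.6 CPM in MI controls and 10.2, 12.2 and 7.16 CPM in MI Vegfc-deficient hearts. Col4a6 rose by a log2 fold change of 1.58 in control hearts (SE 0.39, adjusted p = 0.0068) and 1.86 in Vegfc-deficient hearts (SE 0.34, adjusted p = 0.0011). Xist, also X-linked, separated the naive from the MI libraries, and the part of that difference in these values was not tested. Col4a3 (ENSMUSG00000079465, chromosome 1, 82586921 to 82722059) and Col4a4 (ENSMUSG00000067158, chromosome 1, 82448423 to 82586849), whose chains are known from kidney and lung, did not pass the test in either genotype. Col4a3 was at 8.38 and 11.4 CPM in naive controls and 4.22, 6.41 and 6.67 CPM in naive Vegfc-deficient hearts, and at 8.51, 3.85 and 5.14 CPM in MI controls and 11.6, 6.88 and 10.3 CPM in MI Vegfc-deficient hearts. Col4a4 was at 12.9 and 13.1 CPM in naive controls and 10.6, 8.71 and 11.2 CPM in naive Vegfc-deficient hearts, and at 11.9, 5.58 and 5.25 CPM in MI controls and 16.8, 8.18 and 13.4 CPM in MI Vegfc-deficient hearts. The MI control libraries overlapped the naive controls for Col4a3 and lay below them for Col4a4, with log2 fold changes of -0.77 (adjusted p = 0.0971) and -0.79 (adjusted p = 0.102), while those in Vegfc-deficient hearts were 0.73 (adjusted p = 0.0807) and 0.32 (adjusted p = 0.433). M35 was the highest MI library for both. Both genes were called lower in control hearts without M006, with limma-voom and with the length trend removed.

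Of the fibril-associated collagens, which decorate the surface of fibrils, Col12a1 (ENSMUSG00000032332, chromosome 9, 79598991 to 79718831) was at 0.981 and 1.18 CPM in naive controls and 1.96, 4.48 and 7.41 CPM in naive Vegfc-deficient hearts. It was at 133, 158 and 227 CPM in MI controls and 117, 236 and 172 CPM in MI Vegfc-deficient hearts, with log2 fold changes of 7.31 in control hearts (SE 0.63, adjusted p = 0.000115) and 5.23 in Vegfc-deficient hearts (SE 0.46, adjusted p = 3.87e-05). Col14a1 (ENSMUSG00000022371, chromosome 15, 55307750 to 55520803), a regulator of fibril growth, was at 43.2 and 31.5 CPM in naive controls and 39.9, 53.0 and 43.2 CPM in naive Vegfc-deficient hearts. After MI it was at 607, 536 and 763 CPM in MI controls and 609, 809 and 716 CPM in MI Vegfc-deficient hearts, and it had the smallest adjusted p of all members, with log2 fold changes of 4.09 in control hearts (SE 0.28, adjusted p = 5.43e-05) and 3.97 in Vegfc-deficient hearts (SE 0.23, adjusted p = 1.08e-05). Col16a1 (ENSMUSG00000040690, chromosome 4, 130047840 to 130099283) was at 14.0 and 10.6 CPM in naive controls and 10.2, 11.5 and 18.8 CPM in naive Vegfc-deficient hearts, and at 167, 184 and 273 CPM in MI controls and 153, 251 and 272 CPM in MI Vegfc-deficient hearts. Its log2 fold changes were 4.08 in control hearts (SE 0.39, adjusted p = 0.000145) and 4.06 in Vegfc-deficient hearts (SE 0.33, adjusted p = 3.34e-05). In all 3 of these genes naive and MI libraries were far apart. Type IX chains, known from cartilage fibrils, were scarce. Col9a2 (ENSMUSG00000028626, chromosome 4, 121039385 to 121055322) was at 0.268 and 0.0906 CPM in naive controls and 0.294, 0.363 and 1.22 CPM in naive Vegfc-deficient hearts, and at 9.53, 7.34 and 12.2 CPM in MI controls and 5.05, 5.95 and 10.52 CPM in MI Vegfc-deficient hearts. Col9a2 rose by a log2 fold change of 5.70 in control hearts (SE 0.74, adjusted p = 0.000362) and 3.44 in Vegfc-deficient hearts (SE 0.52, adjusted p = 0.000376). Col9a1 (ENSMUSG00000026147, chromosome 1, 24177610 to 24252684) had 0 counts in all 5 naive libraries and was at 0.538, 0.947 and 0.660 CPM in MI controls and 0.118, 1.803 and 0.704 CPM in MI Vegfc-deficient hearts. The MI means were at least 2.63-fold higher in control and 2.41-fold higher in Vegfc-deficient hearts than 3 counts per naive library, with adjusted p = 0.0364 and 0.0138. The call in control hearts was lost without any 1 of 6 libraries.

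Col22a1, found at tissue junctions, rose in Vegfc-deficient hearts only, at a log2 fold change of 3.26 (adjusted p = 0.0192) against 1.95 in control hearts (adjusted p = 0.17). M35, at 4.94 CPM, was the highest library for Col22a1, and the call was lost without it (log2 fold change 2.29) or without M149 or M150 (2.70 and 2.998). Col9a3 rose in both genotypes by log2 fold changes of 2.07 and 1.59 (adjusted p = 0.0151 and 0.0204). Of its exon model, 6.07% is shared with Tcfl5 on the opposite strand, so its counts are less certain, though Tcfl5 had only 47 counts over all libraries. Col20a1 did not pass the threshold, with adjusted p = 0.288 and 0.114.

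All 3 network-forming genes rose. Col8a1 (ENSMUSG00000068196, chromosome 16, 57624258 to 57754737), a collagen of vascular walls and of the remodelled heart, was at 73.0 and 64.6 CPM in naive controls and 81.6, 135 and 112 CPM in naive Vegfc-deficient hearts. It was at 903, 981 and 1328 CPM in MI controls and 625, 1268 and 1245 CPM in MI Vegfc-deficient hearts, lowest in M35, with log2 fold changes of 3.96 in control hearts (SE 0.40, adjusted p = 0.000159) and 3.26 in Vegfc-deficient hearts (SE 0.32, adjusted p = 5.42e-05). Col8a2 (ENSMUSG00000056174, chromosome 4, 126286793 to 126314330), its partner chain, was far lower in naive hearts, at 1.16 and 0.997 CPM in naive controls and 1.08, 4.96 and 6.43 CPM in naive Vegfc-deficient hearts. It reached 154, 149.8 and 226 CPM in MI controls and 122, 178 and 153 CPM in MI Vegfc-deficient hearts, with log2 fold changes of 7.35 in control hearts (SE 0.66, adjusted p = 0.000131) and 5.17 in Vegfc-deficient hearts (SE 0.48, adjusted p = 4.41e-05). Col10a1 (ENSMUSG00000039462, chromosome 10, 34389981 to 34397085), the collagen of hypertrophic cartilage, had 0 counts in both naive controls and in M149, and was at 0.242 and 0.163 CPM in M150 and M34. After MI it was at 1.61, 1.99 and 1.39 CPM in MI controls and 0.353, 3.27 and 3.27 CPM in MI Vegfc-deficient hearts, again lowest in M35. The MI control mean was at least 6.14-fold higher than 3 counts per library (adjusted p = 0.00788), and the log2 fold change in Vegfc-deficient hearts was 4.08 (SE 1.01, adjusted p = 0.0064). Col7a1 (ENSMUSG00000025650, chromosome 9, 108953586 to 108984875), which forms anchoring fibrils in skin, had 3 counts in the naive controls together, at 0.178 and 0.0906 CPM, and was at 0, 0.363 and 0.326 CPM in naive Vegfc-deficient hearts. It was at 2.26, 5.48 and 9.32 CPM in MI controls and 3.23, 5.16 and 4.39 CPM in MI Vegfc-deficient hearts after MI. The ratio in control hearts was 45.04, with a counting interval of 15.3 to 219 that again leaves out the spread between mice. In Vegfc-deficient hearts the log2 fold change was 4.19 (SE 0.74, adjusted p = 0.0009).

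Of the 6 beaded filament chains of type VI, 3 rose. Col6a1 (ENSMUSG00000001119, chromosome 10, 76708792 to 76726168) and Col6a2 (ENSMUSG00000020241, chromosome 10, 76595762 to 76623630), which are neighbours, encode the shorter chains of the common type VI filament. Col6a1 was at 148.9 and 118 CPM in naive controls and 89.8, 114 and 111 CPM in naive Vegfc-deficient hearts, and at 457, 321 and 449 CPM in MI controls and 747, 653 and 536 CPM in MI Vegfc-deficient hearts. The log2 fold changes were 1.62 in control hearts (SE 0.24, adjusted p = 0.000578) and 2.62 in Vegfc-deficient hearts (SE 0.21, adjusted p = 3.3e-05). Col6a2 was at 100.2 and 81.7 CPM in naive controls and 63.6, 81.9 and 82.6 CPM in naive Vegfc-deficient hearts, and at 301, 249 and 315 CPM in MI controls and 559, 413 and 395 CPM in MI Vegfc-deficient hearts. Col6a2 rose by a log2 fold change of 1.66 in control hearts (SE 0.22, adjusted p = 0.000391) and 2.58 in Vegfc-deficient hearts (SE 0.20, adjusted p = 2.9e-05). Naive and MI libraries did not overlap for either gene. The third chain of this filament, Col6a3 on chromosome 1, was at 79.2 and 68.4 CPM in naive controls and 56.3, 92.8 and 75.4 CPM in naive Vegfc-deficient hearts, and at 258, 170.0 and 222 CPM in MI controls and 283, 239.6 and 236 CPM in MI Vegfc-deficient hearts. Col6a3 rose by a log2 fold change of 1.55 in control hearts (SE 0.24, adjusted p = 0.000809) and 1.76 in Vegfc-deficient hearts (SE 0.21, adjusted p = 0.000119). The chains Col6a4, Col6a5 and Col6a6, side by side on chromosome 9, did not pass the test in either genotype. Col6a6 was at 27.6 and 33.2 CPM in naive controls and 18.5, 18.6 and 31.5 CPM in naive Vegfc-deficient hearts, and at 19.3, 7.61 and 17.8 CPM in MI controls and 19.2, 4.15 and 3.52 CPM in MI Vegfc-deficient hearts. It was the only member with a log2 fold change under -1 in both genotypes, -1.03 (SE 0.64, adjusted p = 0.202) and -1.37 (SE 0.60, adjusted p = 0.0724). Without M35, edgeR called it lower in both genotypes, at a log2 fold change of -1.03 and -2.58 and adjusted p = 0.0399 and 0.000806. Its neighbour Col6a5 was at 2.497 and 2.36 CPM in naive controls and 1.37, 1.21 and 4.23 CPM in naive Vegfc-deficient hearts and ran from 1.04 CPM in M913 to 44.9 CPM in M40 after MI, the widest range of any member with counts in every MI library other than Col2a1. Its log2 fold changes were 3.14 in control hearts (SE 1.33, adjusted p = 0.071) and 2.68 in Vegfc-deficient hearts (SE 1.12, adjusted p = 0.0628), and several alternatives, DESeq2 and total counts as library size among them, called it higher in both. Those of Col6a4, which rest on few counts, were 2.40 (SE 2.09, adjusted p = 0.325) and 1.85 (SE 1.51, adjusted p = 0.294).

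Both multiplexins, basement membrane proteins that release anti-angiogenic fragments, rose. Col18a1 (ENSMUSG00000001435, chromosome 10, 77052178 to 77166548) was at 7.76 and 8.34 CPM in naive controls and 6.86, 9.80 and 10.9 CPM in naive Vegfc-deficient hearts, and at 64.6, 63.1 and 101 CPM in MI controls and 55.0, 95.4 and 106 CPM in MI Vegfc-deficient hearts. Col18a1 rose by a log2 fold change of 3.24 in control hearts (SE 0.35, adjusted p = 0.0002) and 3.22 in Vegfc-deficient hearts (SE 0.30, adjusted p = 4.48e-05). Col15a1 (ENSMUSG00000028339, chromosome 4, 47208161 to 47313167) was at 113 and 78.0 CPM in naive controls and 64.8, 78.2 and 76.2 CPM in naive Vegfc-deficient hearts, and at 243, 158 and 264 CPM in MI controls and 292, 382 and 350.4 CPM in MI Vegfc-deficient hearts. Col15a1 rose by a log2 fold change of 1.21 in control hearts (SE 0.25, adjusted p = 0.00318) and 2.23 in Vegfc-deficient hearts (SE 0.23, adjusted p = 5.96e-05). For both genes all MI libraries lay above all naive ones. Among the membrane-spanning collagens, Col23a1 rose in both genotypes by log2 fold changes of 0.83 and 0.81 (adjusted p = 0.0139 and 0.00757). With the length trend removed both calls for Col23a1 were lost (log2 fold changes 0.56 and 0.40, adjusted p = 0.0731 and 0.13), and that in control hearts also with the 2 compared groups fitted alone (adjusted p = 0.0534). Col13a1 was at 2.85 and 1.63 CPM in naive controls and 1.96, 2.54 and 2.28 CPM in naive Vegfc-deficient hearts, and at 1.83, 1.32 and 1.36 CPM in MI controls and 2.06, 1.59 and 2.15 CPM in MI Vegfc-deficient hearts. Its log2 fold changes were negative in both genotypes, -0.58 and -0.22, but did not pass the test (adjusted p = 0.189 and 0.566). Col17a1 (ENSMUSG00000025064, chromosome 19, 47646344 to 47692094), known from the junction of skin epithelium with its basement membrane, was at 1.34 and 1.36 CPM in naive controls and 0.686, 0.121 and 0.326 CPM in naive Vegfc-deficient hearts, and at 0.592, 0.676 and 0.624 CPM in MI controls and 0.529, 0.671 and 0.373 CPM in MI Vegfc-deficient hearts. These are low levels, and neither genotype passed the test (adjusted p = 0.0964 and 0.502). Col28a1 rose in Vegfc-deficient hearts by a log2 fold change of 1.23 (adjusted p = 0.0178), beside 1.12 in control hearts (adjusted p = 0.0539), a call lost without M150, M34 or M913. Col26a1 did not pass the test in either genotype (adjusted p = 0.546 and 0.305).

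Together these shifts changed how much of each library was collagen mRNA and of what kind. Collagen genes took 0.205% to 0.273% of all counts in the 5 naive libraries and 2.62% to 4.77% in the 6 MI libraries. The means were 0.242% ± 0.0274 (SD, n = 5) and 3.66% ± 0.743 (SD, n = 6), a 15.1-fold difference. By an exact two-sided permutation test over libraries the p was 0.00216, the smallest this design allows. The fold depends on the library size used. With TMM-scaled sizes it was smaller, at shares of 0.236% to 0.325% in naive and 2.37% to 4.08% in MI libraries. Fibrillar genes made up 50.7% to 61.7% of the collagen counts in naive hearts and 81.3% to 84.9% after MI, whereas basement membrane genes went from 19.2% to 28.2% down to 3.90% to 5.99%. Their summed counts still rose, from 0.0476% to 0.0729% of all counts in naive libraries to 0.128% to 0.203% after MI. Per kilobase of the longest annotated transcript, the scale on which genes can be compared with each other, Col3a1 ranked first in every group. Col4a1 was second in both naive groups, but sixth in MI control and seventh in MI Vegfc-deficient hearts. Col1a1 was at 15.0 CPM per kilobase in naive control hearts, or 3.09% of the collagen total on that scale, and at 9.23% in MI control and 10.4% in MI Vegfc-deficient hearts.

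**Figure D3:**
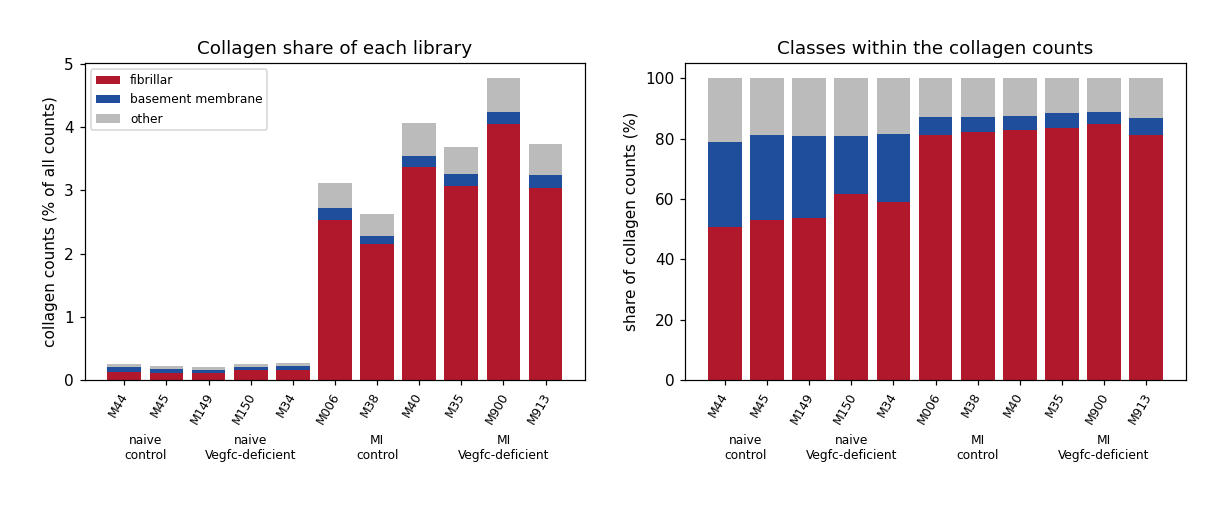
Left, collagen counts as a percentage of all counts in each library, stacked by class; right, the same counts as a percentage of all collagen counts. MI libraries hold 2.62% to 4.77% collagen against 0.205% to 0.273% in naive libraries, and the fibrillar part fills 81.3% to 84.9% of it against 50.7% to 61.7%.

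Ratios between collagen genes of the same or of different types were compared in the same way, as was that between the fibrillar and basement membrane classes. The 12 tests were adjusted by Benjamini-Hochberg. The ratio of Col1a1 to Col1a2 counts had a geometric mean of 0.302 in naive and 0.508 in MI libraries, and the ranges of 0.2501 to 0.363 and 0.412 to 0.565 did not overlap (p = 0.00216 by exact permutation test, adjusted p = 0.00649). Col3a1 to Col1a1 went from 8.91 to 4.35 (exact permutation p = 0.00433, adjusted p = 0.0104), with 6.89 to 10.3 in naive and 3.33 to 6.17 in MI libraries. Col5a1 to Col1a1 went from 0.515 to 0.171 (exact permutation p = 0.00216, adjusted p = 0.00649). The ratio of Col4a1 to Col4a2 fell from 3.52 to 2.22 (exact permutation p = 0.00216, adjusted p = 0.00649). Col6a1 to Col6a2, by contrast, was 1.41 in both (exact permutation p = 0.989, adjusted p = 1), with a difference of 0.0014 on the log2 scale and 1.29 to 1.58 over all 11 libraries. All fibrillar to all basement membrane counts rose from 2.24 to 16.9 (exact permutation p = 0.00216, adjusted p = 0.00649). Without scaling by length these ratios show change between libraries and not the stoichiometry of the chains.

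**Figure D4:**
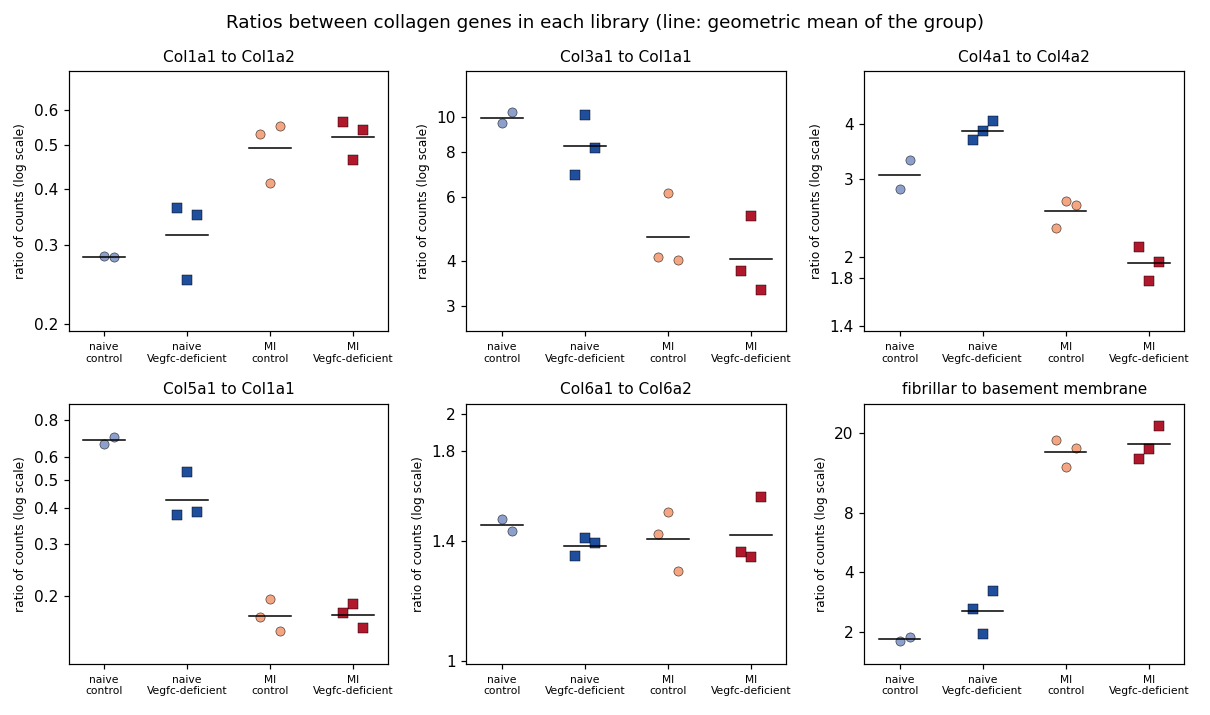
Ratio of counts between collagen genes in each library, on log axes, with a line at the geometric mean of each group. Naive and MI libraries separate in all panels but that of Col6a1 to Col6a2, and in the panel of Col4a1 to Col4a2 the 3 MI Vegfc-deficient libraries, at 1.77 to 2.11, lie below the 3 MI controls, at 2.33 to 2.68.

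The question closest to the study's purpose was whether collagen expression after MI differed with myeloid Vegfc. By edgeR 0 of 42 collagen genes differed between the infarcted genotypes at an adjusted p of 0.05, and 0% of all 14779 genes did. DESeq2 called 50 genes, none of them a collagen gene, and limma-voom called 0. At an unadjusted p under 0.05 there were 7 members, or 16.7% of those tested, beside 7.94% of all genes. All 7 (Col6a1, Col6a2, Col15a1, Col4a2, Col4a3, Col4a4 and Col4a5) were higher in the Vegfc-deficient hearts. Over the members 31 log2 fold changes were positive and 11 negative, with a median of 0.183, beside a median of -0.0073 over all genes. In 5 members (Col4a2, Col5a3, Col6a1, Col6a2 and Col15a1) all 3 Vegfc-deficient libraries lay above all 3 controls, or 11.9% of those tested, beside 5.99% of all genes, and in 0 did they lie below, beside 6.12%. For Col5a3 the groups were barely apart, at 23.57 CPM in M900 against 23.52 CPM in M006.

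The values of Col6a1 in MI hearts, given above, were 409 ± 76.3 CPM in controls and 645 ± 106 CPM in Vegfc-deficient hearts (SD, n = 3 each). The log2 fold change was 0.66 (95% interval 0.21 to 1.10, adjusted p = 0.584). For Col6a2 it was 0.66 (0.25 to 1.07, adjusted p = 0.584), and for Col15a1 0.62 (0.14 to 1.11, adjusted p = 0.584). Leaving out each library in turn gave 0.54 to 0.79 for Col6a1, 0.49 to 0.76 for Col6a2 and 0.46 to 0.77 for Col15a1, positive each time. In the basement membrane class all 6 log2 fold changes were positive, at 0.07 for Col4a1, 0.17 for Col4a6, 0.44 for Col4a5, 0.45 for Col4a2, 0.72 for Col4a3 and 0.76 for Col4a4. Their adjusted p-values ran from 0.585 to 0.949. M35 was the highest MI library for Col6a1, Col6a2, Col5a3, Col4a3 and Col4a4, and it also held the highest cardiomyocyte sum of the MI libraries, 21280 CPM against 2148 to 10720 CPM in the other 5. Without M35 the log2 fold change of Col5a3 went from 0.56 to 0.20. The part of this tissue difference in the other values was not tested. Over 4 endothelial markers (Pecam1, Cdh5, Kdr and Tie1) the summed level was 315.8 to 618.3 CPM in MI control and 521.5 to 639.8 CPM in MI Vegfc-deficient libraries, and in both genotype comparisons 0 of the 4 passed the adjusted test. Pecam1 was at 185 ± 72.9 CPM in MI control and 267 ± 19.3 CPM in MI Vegfc-deficient hearts, and Cdh5 at 106 ± 29.5 and 148.7 ± 9.06 CPM (SD, n = 3 each). Their part in the basement membrane values was not tested.

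For the main scar collagens the intervals allow changes in either direction. The log2 fold change between the MI groups was 0.50 for Col1a1 (95% interval -0.27 to 1.27), 0.43 for Col1a2 (-0.21 to 1.07) and 0.28 for Col3a1 (-0.40 to 0.97), with adjusted p of 0.744, 0.733 and 0.849. In Col5a1 it was 0.49 (-0.03 to 1.02, adjusted p = 0.65), in Col5a2 0.05 (-0.55 to 0.66) and in Col11a1 0.13 (-1.32 to 1.58). Hence a difference of 2-fold was outside the interval for Col3a1 and Col5a2, but not for Col1a1, Col1a2 or Col5a1. The collagen share of counts was 3.27% ± 0.730 in MI control and 4.06% ± 0.615 in MI Vegfc-deficient hearts (SD, n = 3 each). The ranges overlapped (p = 0.3 by exact two-sided permutation test, where 0.1 is the smallest possible). Of the chain ratios, Col4a1 to Col4a2 separated the groups completely, at a geometric mean of 2.54 in MI control and 1.94 in MI Vegfc-deficient hearts. Its exact permutation p was 0.1, the smallest 3 against 3 libraries can give, and its adjusted p 0.2. The other 5 ratios overlapped, with exact permutation p from 0.5 to 1.

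**Figure D5:**
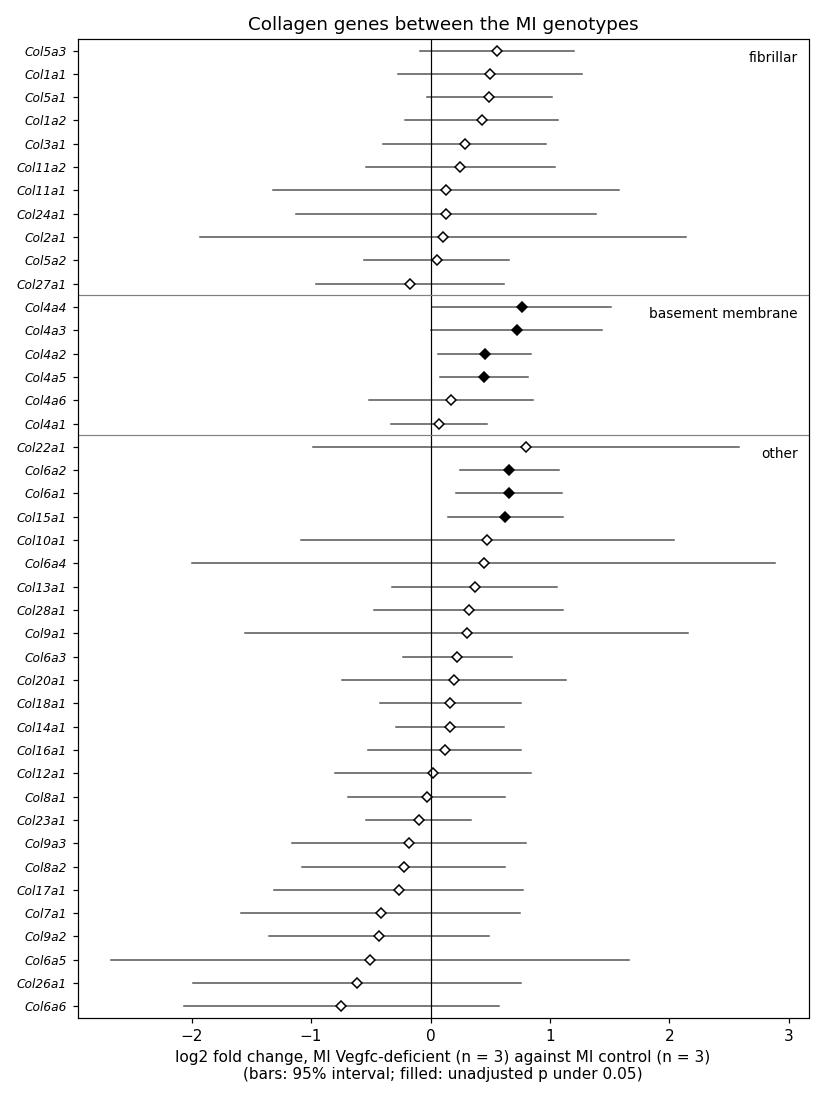
Log2 fold change of each collagen gene in MI Vegfc-deficient against MI control hearts, with 95% intervals; filled symbols had an unadjusted p under 0.05, and none passed after adjustment. All filled symbols lie to the right of 0 and belong to types IV, VI and XV, whereas the fibrillar intervals include 0.

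In naive hearts 0 of 42 collagen genes differed between the genotypes at an adjusted p of 0.05 by edgeR, with 0% of all genes called, and 5 had an unadjusted p under 0.05, or 11.9% beside 3.38% of all genes. The estimates were lower in naive Vegfc-deficient hearts for Col4a2 (log2 fold change -0.52, SE 0.19) and Col17a1 (-1.79, SE 0.57), and higher for Col11a1 (3.15, SE 1.126), Col12a1 (2.11, SE 0.60) and Col8a2 (1.95, SE 0.63), each with an adjusted p of 1. The endothelial sum was 732.7 and 782.7 CPM in naive control and 493 to 699.8 CPM in naive Vegfc-deficient libraries, lower in the same group as Col4a2, and its part in that value was not tested. The 3 higher genes share a pattern over libraries. Col11a1 stood at 0.259%, 0.263% and 0.407% of its mean MI level in M44, M45 and M149, but at 1.66% in M150 and 4.83% in M34. For Col12a1 the same shares were 0.564% to 1.13%, then 2.57% and 4.25%. For Col8a2 they were 0.707%, 0.608% and 0.658%, then 3.03% and 3.92%. Xist, which is not a collagen gene, stood at 0.186%, 0.378% and 0.526% of its mean MI level in M44, M45 and M149, and at 2.42% in M150 and 3.51% in M34. M34 and M150 also held the lowest Lyz2 of the naive libraries, and without M149 the call for Col8a2 passed the threshold (log2 fold change 2.40, adjusted p = 0.0468). The fit without M149 called 17 of all genes between the naive genotypes. Without M34 the log2 fold changes were 1.93 for Col11a1, 1.55 for Col12a1 and 1.44 for Col8a2. The part in these values of whatever sets M34 and M150 apart was not tested.

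The test of whether the response to MI itself differed with genotype called 0 of 42 members and 0% of all genes by edgeR, with 10 members, or 23.8%, at an unadjusted p under 0.05, beside 8.3% of all genes. The estimated response was larger in Vegfc-deficient hearts for Col4a2 (log2 difference 0.97, SE 0.26), Col4a3 (1.501), Col5a3 (1.004), Col6a1 (1.005), Col6a2 (0.92) and Col15a1 (1.01). It was smaller for Col11a1 (-3.02), Col12a1 (-2.09), Col8a2 (-2.17) and Col9a2 (-2.26). The first 3 of these had higher naive values in M34 and M150, and Col9a2 in M34 alone, while the MI groups of all 4 overlapped. Their adjusted p ran from 0.543 to 0.593, and that of Col4a2 was 0.534. DESeq2 called 54 genes in this test, 1 of them a member, Col4a2 (adjusted p = 0.0166), and gave an adjusted p for 19 members only. The 3 genes that rose in Vegfc-deficient hearts only, Col5a3, Col22a1 and Col28a1, had interaction adjusted p of 0.598, 0.845 and 0.969, so a difference in response was not shown for them.

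Genes that modify, cut or bind collagen were followed from lists of known function. Of 31 tested genes for the hydroxylation, folding, propeptide removal and cross-linking of collagen, 22 rose and 1 fell in control hearts, and 28 rose and 1 fell in Vegfc-deficient hearts. Over all genes the shares were 26.3% higher and 24.1% lower in control and 30% and 27.7% in Vegfc-deficient hearts. The largest mean changes were in P4ha3, a prolyl hydroxylase subunit, Lox, the lysyl oxidase that starts cross-linking, and its relative Loxl3. P4ha3 was at 0.357 and 0.0906 CPM in naive controls and 0.196, 1.45 and 2.85 CPM in naive Vegfc-deficient hearts, and at 67.7, 89.4 and 122 CPM in MI controls and 32.7, 125 and 123 CPM in MI Vegfc-deficient hearts. Its log2 fold changes were 8.65 in control hearts (SE 1.09, adjusted p = 0.000321) and 5.91 in Vegfc-deficient hearts (SE 0.72, adjusted p = 0.000119). Lox was at 8.29 and 12.8 CPM in naive controls and 12.5, 23.0 and 40.9 CPM in naive Vegfc-deficient hearts, and at 495, 665 and 841 CPM in MI controls and 401, 715 and 718 CPM in MI Vegfc-deficient hearts. Lox rose by a log2 fold change of 5.98 in control hearts (SE 0.60, adjusted p = 0.000159) and 4.58 in Vegfc-deficient hearts (SE 0.47, adjusted p = 5.84e-05). Loxl3 rose from 12.7 and 11.1 and 12.1, 14.2 and 17.0 CPM to 112, 150.3 and 198 and 90.6, 215 and 195 CPM in the same group order (adjusted p = 0.000204 and 4.97e-05). Colgalt2, a galactosyltransferase for hydroxylysine, was the 1 gene of the list that fell, from 30.5 and 37.9 and 22.7, 31.1 and 33.6 CPM to 21.5, 10.4 and 6.82 and 19.7, 8.43 and 11.9 CPM, a log2 fold change of -1.41 and -1.134 (adjusted p = 0.0227 and 0.0356). Lox and P4ha3 were again higher in M34 and M150 than in the other naive libraries, like Col11a1.

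Of 9 tested collagen receptors 7 rose in control and 8 in Vegfc-deficient hearts, and 0 fell, beside the same 26.3% and 30% of all genes higher and 24.1% and 27.7% lower. Itga11, the integrin chain of fibroblasts that binds fibrillar collagen, was at 6.33 and 3.81 CPM in naive controls and 2.84, 5.45 and 5.78 CPM in naive Vegfc-deficient hearts, and at 40.5, 42.9 and 91.5 CPM in MI controls and 47.6, 74.0 and 68.0 CPM in MI Vegfc-deficient hearts. Itga11 rose by a log2 fold change of 3.52 in control hearts (SE 0.47, adjusted p = 0.000398) and 3.75 in Vegfc-deficient hearts (SE 0.40, adjusted p = 7.26e-05). Itga2, another collagen-binding integrin chain, rose by log2 fold changes of 2.84 and 3.32 (adjusted p = 0.00167 and 0.00021). Mrc2, an uptake receptor for collagen fragments, rose by log2 fold changes of 2.45 and 2.29 (adjusted p = 0.000208 and 5.82e-05). Among 7 collagen-degrading proteases 5 rose in each genotype and 0 fell, beside 26.3% and 30% of all genes higher. Mmp14, a membrane-bound collagenase, was at 18.6 and 16.1 CPM in naive controls and 14.2, 11.5 and 19.1 CPM in naive Vegfc-deficient hearts, and at 128, 159 and 238 CPM in MI controls and 136, 327 and 206 CPM in MI Vegfc-deficient hearts. Mmp14 rose by a log2 fold change of 3.33 in control hearts (SE 0.42, adjusted p = 0.000342) and 3.89 in Vegfc-deficient hearts (SE 0.37, adjusted p = 4.69e-05). Mmp8 rose by log2 fold changes of 3.10 and 2.97 (adjusted p = 0.0278 and 0.0116) and Mmp2 by 1.67 and 2.63 (adjusted p = 0.000484 and 3.22e-05), whereas Mmp9 and Mmp13, a gelatinase and a collagenase, did not pass the test in either genotype. Between the MI genotypes 0 genes of these lists passed the adjusted threshold, with 27 of 31 processing, 7 of 9 receptor and 6 of 7 protease genes positive in sign, beside 7227 of all 14779 genes.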

How the data were processed

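Left ventricular tissue of 11 mice, infarcted where MI was induced, was profiled by stranded mRNA sequencing, and the authors deposited counts per gene. The submitters' processing notes name cutadapt 1.13, STAR, HTSeq 0.6.1p1, DESeq2 1.14.1 and the build mm10, without giving their roles. The strand setting and annotation release are not given in the sources used here. Of 25006 gene IDs, 24991 were matched to GENCODE M21. Each library is 1 mouse, so p-values measure the spread between mice. The 11 libraries were fitted together in edgeR 4.0.16 (R 4.3.3) with filterByExpr, TMM scaling and quasi-likelihood tests of 5 contrasts, Benjamini-Hochberg adjusted over 14779 genes. Intervals use the t quantile of the fit. CPM, folds and ratios were computed from the deposited counts. Shares and ratios were compared by exact two-sided permutation tests. Values in every library are given for fibrillar and basement membrane members, for others with an adjusted p under 0.05 in either MI comparison and a log2 fold change of 2 or more in size in both, for those negative in both, and for any with an unadjusted p under 0.05 between genotypes or in the interaction. The few other members given by library or by value (such as Col6a3 and Col6a5) were chosen after their values were seen. Of each pathway list, the 3 with the largest mean of both MI log2 fold changes among those past the threshold in both are named, and any that fell in both. Members and lists were chosen with earlier results of these data known. Alternatives were other scalings, filters, tools (DESeq2 1.42.0, limma 3.58.1 voom), trend corrections and leaving out each library. The scripts were tested on simulated data. Promoters came from RefSeq tables. Replicates differed by 8.24 to 163 times counting noise, so none was a duplicate.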

Additional observations from a re-analysis of the deposited data

How the results depend on the processing

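No paired analysis was possible because the groups share no replicate numbers. Over the alternatives run, no called collagen gene changed direction. With total counts as library size, the median log2 fold change of the collagen genes after MI was 2.66 in control and 3.15 in Vegfc-deficient hearts, while the median of all genes moved to 0.575 and 0.593 and the share of calls that were higher to 76.2% and 75.5%, from 52.1% and 52%. Limma-voom gave a median of 1.90 in control hearts and removal of the length trend 2.32 in Vegfc-deficient hearts. DESeq2 called 54 genes in the interaction, 1 of them a collagen gene, Col4a2. Leaving out each library other than M44 and M45, 29 to 33 collagen genes were called after MI in control hearts, beside 6267 to 7636 of all genes. In Vegfc-deficient hearts 30 to 35 were called, beside 6909 to 8564 of all genes. With each of the 11 libraries left out, the medians were 1.74 to 2.51 in control and 2.41 to 2.92 in Vegfc-deficient hearts. Between the MI genotypes the number of collagen genes called was 0 each time (median 0.0759 to 0.317), and in the interaction 0 (median -0.0686 to 0.225). Between the naive genotypes it was 0 to 1 (median 0.0066 to 0.199), the 1 being Col8a2 without M149, where 17 of all genes were called. Fewer collagen genes, and fewer of all genes, were called in control hearts without M44 or M45, which leave 1 naive control, assumed to vary like the other groups. There the calls for Col2a1, Col4a1, Col9a1, Col9a3, Col11a2 and Col23a1 were lost, and without M44 that for Col4a6. Col9a3 in Vegfc-deficient hearts lost its call without M149, M900 or M913. Falls were called only under alternatives. In control hearts limma-voom called Col4a3, Col4a4, Col6a6 and Col17a1 lower, the length correction Col4a3, Col4a4 and Col17a1, and in Vegfc-deficient hearts Col6a6 was lower with DESeq2, limma-voom and the length correction. The collagen share of counts after MI stayed 3.20 to 3.63 percentage points above naive whichever library was left out, and 2.85 above with TMM-scaled library sizes, an alternative chosen after seeing the data. Beyond what was named above the causes were not tested. Genes under about 1 CPM in naive hearts rest on few counts, so their folds are imprecise, and with 3 MI libraries per genotype no exact test of a share or ratio between the genotypes could pass 0.05.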

Other observations

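Among the 5 naive libraries, M34 was the highest for 16 of the 43 collagen genes and the lowest for 0, while M149 was the lowest for 19. Col9a2 stood at 14.5% of its mean MI level in M34 and at 1.07% to 4.3% in the other 4, and Col10a1 at 12.2% in M150 and 8.21% in M34, with 0 counts of Col10a1 in M44, M45 and M149. Among the 6 MI libraries, M900 was the highest for 13 collagen genes and the lowest for 0, and M38 was the lowest for 19. M35 was the highest for 8 and the lowest for 13, being low in Col2a1, Col10a1, Col11a1 and Col8a1 and high in Col6a1, Col6a2, Col6a3 and Col5a3. Summed over 5 cartilage or matrifibrocyte markers, levels were 6.89 to 18.8 CPM in naive and 252 to 597 CPM in MI libraries, with all 5 higher after MI in both genotypes. Among the naive libraries the ratio of Col4a1 to Col4a2 was 2.85 and 3.31 in the controls and 3.68 to 4.05 in the Vegfc-deficient libraries, the reverse of the order after MI; this difference was not tested.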
